A study of Rattus norvegicus with 145 samples.

Results

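Interferon-inducible GTPases and the transcription factor Irf1 were followed in rat liver after daily oral doses of acetamide. The rule lists 7 gene symbols, and 6 of them, Gbp2, Gbp4, Gbp5, Igtp, Irgm and Irf1, are among the 17337 genes counted in each of 5 data sets. Gbp1 is not analysed here. The members were chosen from how these genes moved with dose in these same data, so their dose comparisons are a description. Calls of the fit over all genes are counted beside the share of all genes called. No p is given for a single member at a dose, and nothing is read from the counts. The lists of other interferon gamma genes were also made with earlier results of these data known.

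RNA-Seq was run on the left liver lobe of Wistar rats, 5 per group in 29 groups, dosed by gavage with acetamide in water or with water alone (vehicle). In experiment A, Hsd:WI males of 9 to 10 weeks received vehicle or 1 of 4 doses (30, 100, 300 and 1000 mg/kg/day, written mkd) for 7 days and were sampled on day 8 after an overnight fast. In experiment B, Crl:WI males and females of 8 to 10 weeks received 0, 300, 500, 750, 1000 or 1500 mkd for 7 or 28 days and were sampled on day 8 or day 29. The stock and the breeder of the rats thus differed between A and B. Per the study, samples of B were taken in the way described for A, and its terminal body weights were fasting weights too. Each liver was a separate library with 15449716 to 39986531 reads on genes (median 28262376). The label of liver was borne out by 10 hepatocyte markers such as Alb and Apoa1, which summed to between 186057 and 378285 CPM (counts scaled to a common library total) in the vehicle rats.

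Guanylate-binding proteins (GBPs) are large GTPases, and the immunity-related GTPases (IRGs) Igtp, Irgm and Ifi47 are smaller relatives. Both families are made in many cell types after interferon gamma, and they attack membranes that enclose intracellular microbes. Interferon gamma, secreted mainly by T and NK cells, binds a receptor of the chains Ifngr1 and Ifngr2. The receptor signals through the kinases Jak1 and Jak2 to genes that carry the palindromic gamma-activated site (GAS). Irf1 is induced early and binds the interferon-stimulated response element (ISRE). Type I interferons act through an overlapping route, so none of these genes belongs to interferon gamma alone.

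The sequences before the gene starts are shown because both elements are defined by their letters and because the members divide by them. The windows hold the 250 bases before the start of each gene in RefSeq on the rat build GRCr8, written 5′ to 3′ on the strand of the gene. All 6 members and the relative Ifi47 matched an entry by symbol. Capitals mark GAS letters (TTCNNNGAA, a palindrome) and ISRE letters (GAAA repeated after any 2 bases, or TTTC repeated likewise on the other strand), searched on both strands.
Gbp2 (chr2:234005477-234005726, + strand): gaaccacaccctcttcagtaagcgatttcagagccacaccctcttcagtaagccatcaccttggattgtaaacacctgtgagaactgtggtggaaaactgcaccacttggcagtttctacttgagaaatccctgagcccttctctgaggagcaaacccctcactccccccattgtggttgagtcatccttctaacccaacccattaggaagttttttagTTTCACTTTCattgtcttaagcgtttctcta
Gbp4 (chr2:233978236-233978485, + strand): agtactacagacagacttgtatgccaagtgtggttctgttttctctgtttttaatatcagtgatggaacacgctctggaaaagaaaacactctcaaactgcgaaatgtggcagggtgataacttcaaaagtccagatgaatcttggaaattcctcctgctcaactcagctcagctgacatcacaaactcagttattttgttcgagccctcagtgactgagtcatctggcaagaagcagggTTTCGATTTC
Gbp5 (chr2:233910749-233910998, + strand): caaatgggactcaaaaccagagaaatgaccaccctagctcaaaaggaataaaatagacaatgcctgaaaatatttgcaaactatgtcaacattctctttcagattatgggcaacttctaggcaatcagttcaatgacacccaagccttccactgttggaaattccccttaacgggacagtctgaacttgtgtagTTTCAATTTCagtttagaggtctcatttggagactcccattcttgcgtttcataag
Igtp (chr10:42874797-42875046, + strand): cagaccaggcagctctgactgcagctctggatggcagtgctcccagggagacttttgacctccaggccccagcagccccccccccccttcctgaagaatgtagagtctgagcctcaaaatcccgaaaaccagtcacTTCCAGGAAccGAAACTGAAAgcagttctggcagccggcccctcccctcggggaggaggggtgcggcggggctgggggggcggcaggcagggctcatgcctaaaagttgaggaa
Irgm (chr10:33742579-33742828, - strand): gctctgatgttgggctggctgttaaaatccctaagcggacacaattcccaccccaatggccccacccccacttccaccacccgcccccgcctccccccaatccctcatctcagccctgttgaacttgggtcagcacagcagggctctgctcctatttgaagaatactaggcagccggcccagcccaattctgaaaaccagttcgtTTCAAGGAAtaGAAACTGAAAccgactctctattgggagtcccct
Irf1 (chr10:38417685-38417934, + strand): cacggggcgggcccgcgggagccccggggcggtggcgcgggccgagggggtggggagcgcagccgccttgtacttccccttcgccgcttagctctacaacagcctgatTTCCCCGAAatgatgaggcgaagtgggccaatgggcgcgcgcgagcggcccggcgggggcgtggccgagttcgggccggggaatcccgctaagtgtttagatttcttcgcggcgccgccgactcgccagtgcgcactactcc
Ifi47 (chr10:33798494-33798743, + strand): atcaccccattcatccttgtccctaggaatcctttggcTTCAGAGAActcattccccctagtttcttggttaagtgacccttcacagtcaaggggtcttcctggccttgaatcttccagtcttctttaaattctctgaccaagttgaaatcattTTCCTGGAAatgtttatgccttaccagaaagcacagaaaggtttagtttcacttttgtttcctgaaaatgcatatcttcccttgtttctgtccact

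Every measured member held at least 1 of these letter patterns, and no GAS match overlapped an ISRE match. Of all 27457 promoter windows of the same length, 7.52% held the GAS letters, 3.29% the ISRE letters and 10.4% either. The GBPs carried the ISRE letters alone, ending 22, 1 and 47 bases before the start in Gbp2, Gbp4 and Gbp5. Igtp and Irgm carried both patterns in the same order, GAS first and the same ISRE letters GAAACTGAAA after it, with the ISRE match starting 103 and 34 bases before the start. Irf1 held the GAS letters alone, and Ifi47 held them at 2 places. A match is a description of letters, not of binding. Gbp5, Gbp4 and Gbp2 lie in that order with other Gbp genes on chromosome 2, and Igtp, Irgm, Irf1 and Ifi47 lie on chromosome 10. Copies within these families resemble each other, and some neighbours (Gbp1, Gbp7 and Irgm2 among them) were not counted here, so reads shared between copies make the level of each copy uncertain.

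Levels below are CPM with library factors set over all rats. A log2 fold change with its standard error (SE) comes from edgeR and compares a dose with the vehicle rats of its own data set. A gene was called where it moved 1.5-fold or more and its p, adjusted by Benjamini-Hochberg over all genes tested, did not exceed 0.05. Rats are numbered 1 to 5 within a group. In bulk tissue, fewer cells of a type and less RNA per cell cannot be told apart.

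In experiment A, the guanylate-binding proteins stood highest at 1000 mkd and varied widely between the treated rats. Gbp4 lay at 0.958, 2.14, 1.27, 1.28 and 1.54 CPM in vehicle rats 1 to 5, and at 2.86, 214, 2.94, 42.0 and 21.4 CPM in rats 1 to 5 at 1000 mkd. All 5 treated rats were above all 5 vehicle rats, rats 1 and 3 by little and rat 2 far above the rest. The log2 fold change was 5.31 ± 0.89 (SE), and 3.62 without rat 2. The library factor (TMM) of rat 2 was 1.76, the highest of all rats, against 0.986 to 1.37 in the rest of its group. Its part in the result was not tested.

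Gbp5, which also promotes inflammasome assembly, lay between 2.68 and 5.10 CPM in the vehicle rats and at 7.72, 62.6, 9.21, 71.3 and 22.1 CPM at 1000 mkd. The groups did not overlap, and rats 2 and 4 were again on top (log2 fold change 3.37 ± 0.54). Gbp2, an antimicrobial GBP, lay between 6.62 and 18.8 CPM in vehicle rats and at 13.5, 246, 38.8, 146 and 59.9 CPM at 1000 mkd. Here rat 1 stayed within the vehicle range and the other 4 rats were above it (log2 fold change 3.16 ± 0.62, and 2.53 without rat 2).

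**Figure D1:**
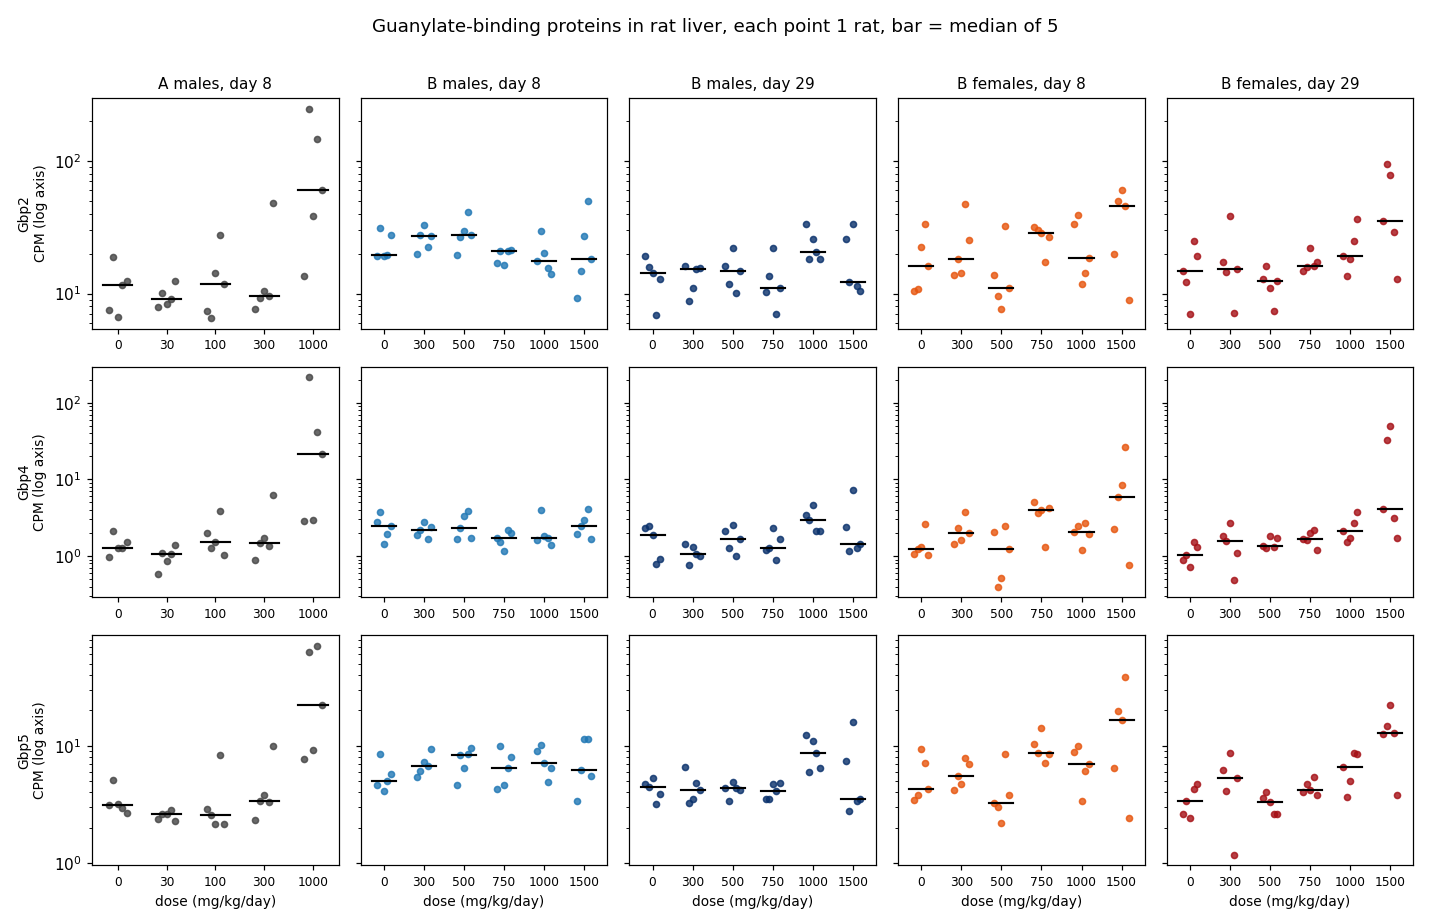
Levels of Gbp2, Gbp4 and Gbp5 (CPM, log axis) against dose in the 5 data sets, with 1 point per rat and a bar at the median of 5 rats. In experiment A the points spread upwards at 1000 mkd, from 2.86 to 214 CPM for Gbp4, and in females they do so at 1500 mkd, while the males of experiment B stay near their vehicle rats on day 8.

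The IRGs moved in the same rats by less. Igtp lay between 30.2 and 89.4 CPM in the vehicle rats of experiment A and at 54.4, 272, 77.5, 344 and 131 CPM at 1000 mkd, so that rats 1 and 3 overlapped the vehicle rats (log2 fold change 1.73 ± 0.43). Irgm, a regulator that keeps the other IRGs off the cell's own membranes, lay between 10.7 and 46.7 CPM and then at 36.8, 183, 49.3, 213 and 84.9 CPM (1.94 ± 0.51). Irf1 differed least, from 11.7 to 46.5 CPM in vehicle rats and at 23.4, 56.7, 37.7, 64.4 and 41.6 CPM at 1000 mkd (0.73 ± 0.38). Rats 2 and 4 held the top 2 places for all 6 members.

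In all, 5 of 6 members were called up at 1000 mkd in experiment A, where 14.0% of the 11323 genes tested were called up, and 2 of 6 had every treated rat above every vehicle rat, where 8.20% of genes did. The median log2 fold change of the members was 2.55, against 0.00093 over all genes tested. Since these contrasts chose the members, nothing is read from the counts.

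**Figure D2:**
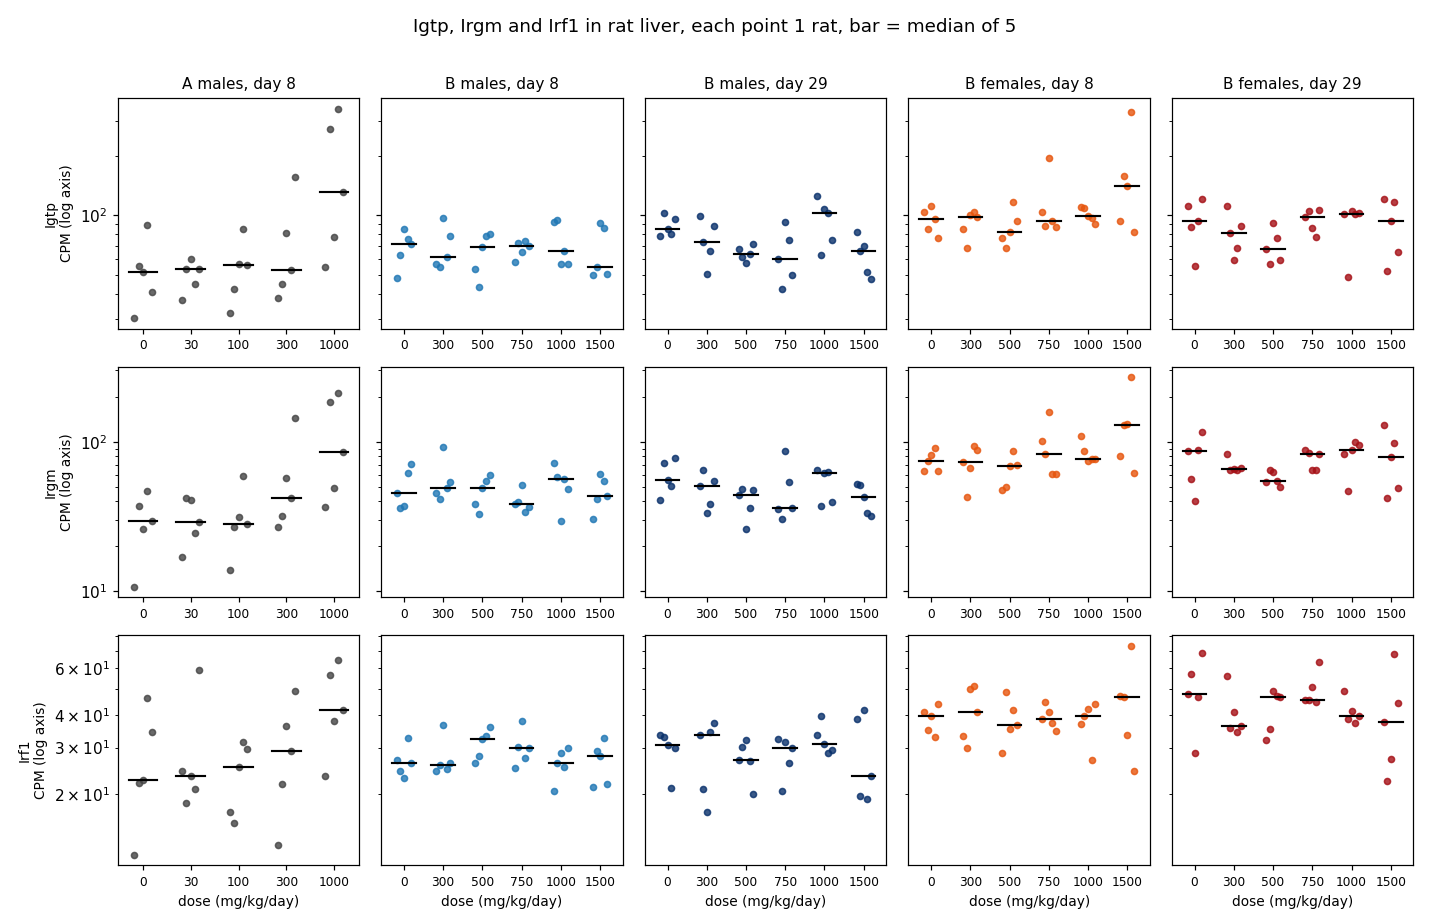
Levels of Igtp, Irgm and Irf1 (CPM, log axis) against dose in the 5 data sets, with 1 point per rat and a bar at the median of 5 rats. The points of experiment A rise at 1000 mkd, to 344 CPM for Igtp, whereas in females on day 29 the 1500 mkd points of Igtp (52.3 to 121 CPM) lie over those of the vehicle rats (55.5 to 120 CPM).

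Below 1000 mkd in experiment A, single rats stood apart. At 300 mkd, rat 5 was highest for all 6 members, with 6.16 CPM of Gbp4, 47.8 CPM of Gbp2, 9.90 CPM of Gbp5, 155 CPM of Igtp, 144 CPM of Irgm and 49.4 CPM of Irf1. The other 4 rats at 300 mkd lay between 0.884 and 1.70 CPM for Gbp4, within or just below the vehicle range. At 100 mkd, rat 4 was highest for all 6 members, with 3.82 CPM of Gbp4 and 27.7 CPM of Gbp2. In the 19 comparisons below the highest dose of a data set, edgeR gave 0 to 3 of 6 members an unadjusted p under 0.05. Over all genes tested it gave such a p to 159 (males day 8, 300 mkd) to 2959 genes (males day 29, 1000 mkd). None of the members was called by edgeR in these comparisons. The share of all genes called up was 0% at these doses in experiment A, at most 0.949% in males of experiment B, 0.00870% at 300, 500 and 750 mkd and 1.03% at 1000 mkd in females day 8, and 0.0349%, 0.166% and 1.23% at 500, 750 and 1000 mkd in females day 29.

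In females day 29, the GBPs lay above most vehicle rats at 1500 mkd, while Igtp, Irgm and Irf1 overlapped them. Gbp4 lay at 0.876, 1.03, 0.713, 1.51 and 1.31 CPM in vehicle rats 1 to 5, and at 4.06, 32.4, 50.2, 3.09 and 1.70 CPM at 1500 mkd. All treated rats were above all vehicle rats, with rats 2 and 3 far above the other 3 (log2 fold change 4.07 ± 0.64, and 3.26 without rat 3). The library factors (TMM) of rats 2 and 3 were 1.51 and 1.29, against 1.09 to 1.15 in the other 3, and their part in the result was not tested. Gbp5 lay between 2.42 and 4.75 CPM and then at 12.6, 14.8, 22.5, 12.9 and 3.81 CPM (1.93 ± 0.37). Gbp2 lay between 6.97 and 25.1 CPM and then at 35.1, 95.5, 78.2, 29.3 and 13.0 CPM (1.68 ± 0.42). For both genes 4 of 5 treated rats were above all vehicle rats, and rat 5 was the lowest for all 3 GBPs.

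For Igtp, the vehicle rats of that data set lay between 55.5 and 120 CPM and the rats at 1500 mkd at 121, 52.3, 93.8, 116 and 65.2 CPM (log2 fold change -0.06 ± 0.23). Irgm lay between 40.3 and 115 CPM and then at 128, 42.2, 78.6, 98.6 and 49.1 CPM (0.04 ± 0.24). Irf1 lay between 28.7 and 68.6 CPM and then at 37.7, 22.4, 27.1, 68.1 and 44.2 CPM (-0.32 ± 0.22). The groups overlapped for all 3 genes. Rat 2, with the most Gbp2 in its group, had the least Igtp, Irgm and Irf1. The called members were the 3 GBPs, 3 of 6, where 9.55% of 11451 genes were called up and 3.54% down. For 1 of 6 members every treated rat was above every vehicle rat, where 3.57% of genes showed this. In a fit of the 2 groups alone Gbp2 was not called.

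At the lower doses of females day 29, Gbp4 lay above most vehicle rats without being called. At 1000 mkd its levels were 2.12, 1.54, 1.70, 2.72 and 3.76 CPM, all above the highest vehicle rat (1.51 CPM), where 2.97% of genes showed this and 1.23% were called up. At 750 mkd 4 of 5 rats were above all vehicle rats. Gbp5 was above all vehicle rats in 4 of 5 rats at 1000 mkd, between 3.63 and 8.60 CPM.

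In females day 8, all 6 members had a positive log2 fold change at 1500 mkd, and only Gbp4 was called. Gbp4 lay at 1.06, 1.23, 1.33, 2.65 and 1.03 CPM in vehicle rats and at 2.23, 5.95, 8.41, 26.1 and 0.759 CPM at 1500 mkd. Rats 2, 3 and 4 were above all vehicle rats, rat 1 was within their range, and rat 5 was below all of them (log2 fold change 2.59 ± 0.60). Without rat 4 it was 1.62. Gbp4 lost its call in 8 of the 10 fits that left out 1 rat, treated or vehicle, that without rat 4 among them. Rat 4 was also highest for Gbp5 (38.5 CPM), Igtp (330 CPM), Irgm (270 CPM) and Irf1 (73.2 CPM), against highest vehicle values of 9.38, 111, 90.3 and 44.1 CPM.

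Log2 fold changes at 1500 mkd in females day 8 were 1.59 ± 0.46 for Gbp5, 0.99 ± 0.46 for Gbp2, 0.85 ± 0.29 for Irgm, 0.78 ± 0.26 for Igtp and 0.23 ± 0.20 for Irf1. In this comparison 0.522% of 11497 genes were called up. Of the 10 fits that leave out 1 rat of these groups, 8 called 0 members, the fit without treated rat 1 called 3 and that without treated rat 5 called 4. Of all genes tested, those 8 fits called 1 to 8, and the fits without treated rats 1 and 5 called 426 and 330. The main fit called 81, so the counts of members moved with the calls over all genes. At 750 mkd in the same data set, Gbp4 was above all vehicle rats in 4 of 5 rats, between 1.33 and 5.02 CPM.

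In males of experiment B, treated and vehicle rats overlapped for every member at 1500 mkd. On day 8, Gbp4 lay between 1.45 and 3.70 CPM in vehicle rats and between 1.66 and 4.15 CPM at 1500 mkd (log2 fold change 0.09 ± 0.31). Gbp2 lay between 19.1 and 31.2 CPM and then between 9.33 and 49.7 CPM (0.04 ± 0.29). By edgeR 0 of 6 members were called, with 0 at an unadjusted p under 0.05, and 0 were called by DESeq2. Of all 11304 genes edgeR called 0.142% up and 0.0354% down, and 1429 had an unadjusted p under 0.05. The log2 fold changes of the 6 members ran from -0.12 (Irgm) to 0.44 (Gbp5).

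On day 29, Gbp4 lay at 2.34, 2.46, 1.88, 0.789 and 0.914 CPM in vehicle males and at 2.41, 1.15, 7.33, 1.26 and 1.43 CPM at 1500 mkd. Rat 3 alone was above the vehicle rats, and the log2 fold change of 0.75 ± 0.43 became -0.14 without it. The library of rat 3 had a TMM factor of 1.48, against 0.945 to 1.06 in the other 4, the highest sum of T and NK markers in its group (78.2 CPM) and the lowest of hepatocyte markers (113029 CPM), and their part in the result was not tested. Rat 3 also had the most Gbp2 (33.7 CPM) and Gbp5 (15.8 CPM) of its group, but not the most Igtp or Irgm. Igtp was below all vehicle rats in 4 of 5 rats, at 82.5, 65.5, 69.8, 51.7 and 47.4 CPM against 78.5 to 103 CPM (-0.45 ± 0.20). At lower doses it was below them in 3 of 5 rats at 300 mkd, 5 of 5 at 500 mkd (-0.45 ± 0.20) and 4 of 5 at 750 mkd (-0.45 ± 0.20). The share of all genes that lay below their vehicle rats in this way was not counted, so nothing particular to Igtp is read from it. At 500 mkd 1542 of 11279 genes had an unadjusted p under 0.05 by edgeR. At 1000 mkd 2 of 5 rats were below and 3 above all vehicle rats. At 1500 mkd edgeR called 0 of 6 members, with 1 at an unadjusted p under 0.05, and 0 were called by DESeq2. Of all 11279 genes edgeR called 3.16% up and 1.76% down, and 3050 had an unadjusted p under 0.05. Every treated rat was above every vehicle rat in 2.48% of genes.

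The highest means in males day 29 came at 1000 mkd, not at 1500 mkd, for 5 of 6 members. Gbp5 lay at 12.4, 5.97, 11.1, 8.65 and 6.41 CPM at 1000 mkd, all above the highest vehicle rat (5.29 CPM), with a log2 fold change of 1.08 ± 0.34. It was the 1 member of 6 with every treated rat above every vehicle rat there, where 3.83% of genes showed this. Of all genes 0.949% were called up. Gbp4 was above all vehicle rats in 3 of 5 rats (0.89 ± 0.43) and Gbp2 likewise (0.77 ± 0.33). Differences of the dose response between sexes, days and experiments were not tested for the members.

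**Figure D3:**
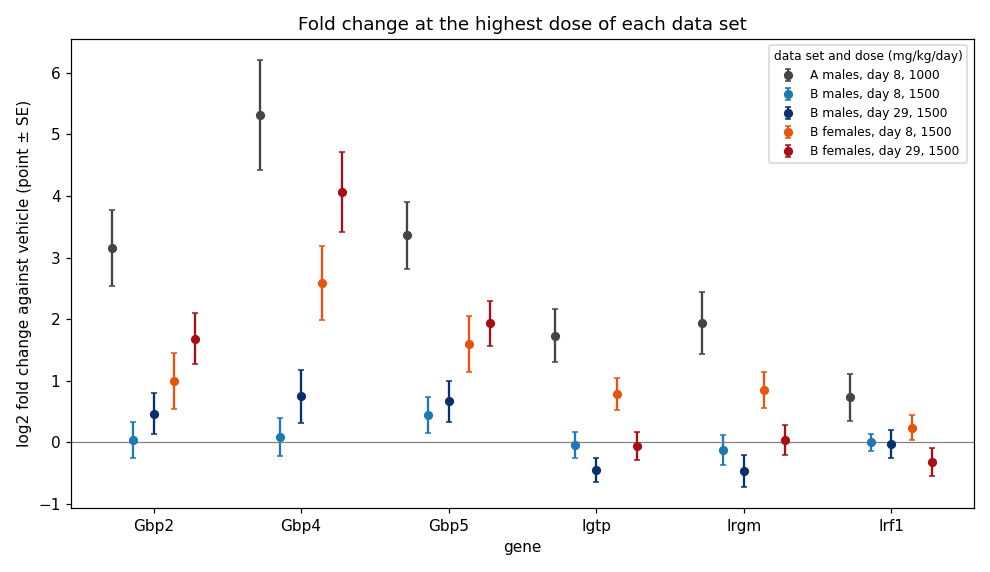
Log2 fold change against vehicle (point) with its standard error (bar) for each member at the highest dose of each data set, 1000 mkd in experiment A and 1500 mkd in experiment B, with 5 rats per group. Gbp4 has the highest point in experiment A (5.31) and in females on day 29 (4.07), and Igtp, Irgm and Irf1 are near 0 in females on day 29.

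**Figure D4:**
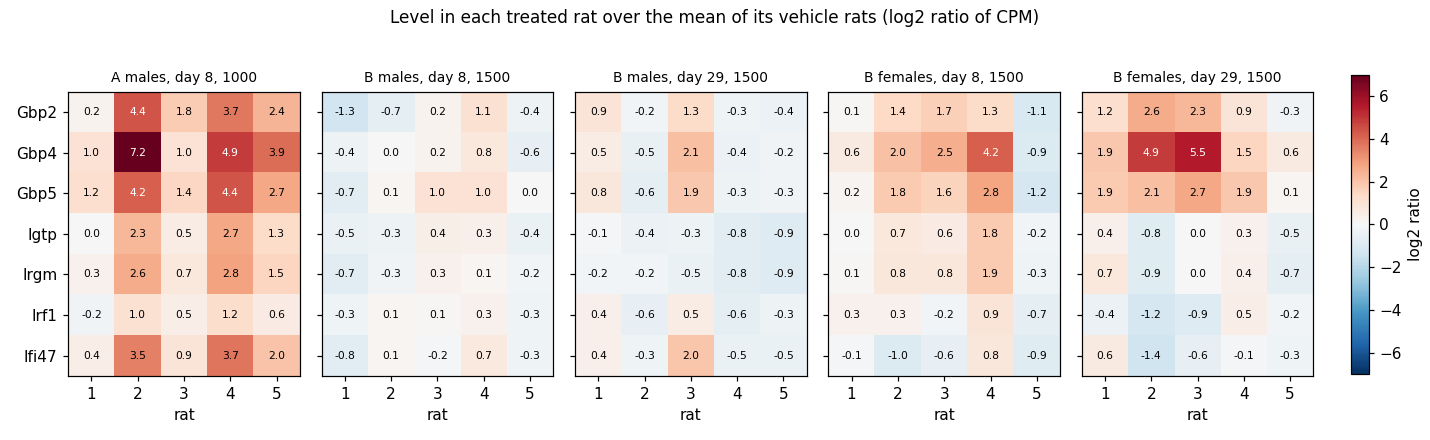
Log2 ratio of the CPM of each treated rat to the mean of its vehicle rats, at the highest dose, for the 6 members and Ifi47, with 1 column per rat. Rats 2 and 4 of experiment A are high for every row, while rats 2 and 3 of the females on day 29 are high for the GBPs only.

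Markers of other cell types and of the type I response were called in several of the same groups. Over all genes tested, 14.0% were called up in experiment A at 1000 mkd, and 2424 of 11323 were called in either direction. At 1500 mkd 9.55% were called up in females day 29 and 0.522% in females day 8. In males day 29 it was 0.949% at 1000 mkd and 3.16% at 1500 mkd, where 1.76% were called down. At 1000 mkd in experiment A, 16 of 19 T and NK cell markers tested were called up, and their summed level was 76.7 to 142 CPM against 42.1 to 51.9 CPM in vehicle rats. Of 16 macrophage markers 11 were called up (1683 to 2928 CPM against 743 to 1946 CPM), of 6 endothelial markers 4 were, and of 10 hepatocyte markers 4 were called down. Of 4 neutrophil markers 1 was called up and 2 down, and of 3 B cell markers 0 were called by edgeR (median log2 fold change -0.23). The summed hepatocyte markers were lowest in rat 2 of that group (83752 CPM), the rat with the most Gbp4. In females day 29 at 1500 mkd, 6 of 18 T and NK markers and 7 of 16 macrophage markers were called up, with sums of 66.0 to 125 CPM against 41.4 to 78.5 CPM and of 1348 to 2478 CPM against 1151 to 1378 CPM. In the same group 2 of 4 neutrophil and 2 of 6 endothelial markers were called up. Of 10 hepatocyte markers 1 was called up and 2 down, and of 2 B cell markers 0 were called. In females day 8 at 1500 mkd neither the T and NK nor the macrophage list had a called marker by edgeR. There the sums of the T and NK markers overlapped (52.4 to 100.9 CPM against 51.9 to 93.3 CPM). No marker of the T and NK, macrophage, endothelial or hepatocyte lists was at 0 in all rats of these groups. Of 29 type I interferon effectors such as Ifit3 and Rsad2, 24 were called up in experiment A at 1000 mkd, 11 in females day 29 and 3 in females day 8 at 1500 mkd. In males day 29 at 1000 mkd 6 of 29 type I effectors were called up and 1 down, with 2 of 14 T and NK markers and 1 of 16 macrophage markers up. At 1500 mkd in these males 1 of 29 type I effectors was called up and 2 down. There 0 of 14 T and NK markers and 0 of 16 macrophage markers were called. The part of these lists in the levels of the members was not tested.

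Genes were ranked by how closely their levels followed the members over the rats. Each rat was given the mean log2 CPM of the 6 members less the mean of its data set, and 9823 genes were compared with this value over all rats of the 5 data sets. The 10 genes with the highest Pearson r, from 0.914 to 0.876, were Mx1, Cmpk2, Ifit3, Zbp1, LOC100910973, Enpp4, Oasl2, Ifit2, Irf7 and Uba7. Mx1 is itself an interferon-induced GTPase, Irf7 is a transcription factor of the type I response, and Uba7 activates Isg15 for conjugation. Of these, 7 belong to the list of type I effectors and 3 (LOC100910973, Enpp4 and Uba7) to none of the lists. The points share libraries and depth within a rat, and the value is a description.

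Genes of the interferon gamma pathway that are not members were tested at each dose. Their lists were made with earlier results of these data known, so their adjusted p values are a description and not an independent test. The lists held 58 symbols, of which 45 were counted and 37 or 38 passed the filter on low counts, depending on the data set. Interferon gamma itself (Ifng) was near the floor, with 0 reads in 77 rats, at least 1 read in 68 and at most 3 in any rat, and was not tested. No difference in Ifng RNA was detectable at this depth.

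In experiment A at 1000 mkd, 20 of 37 of these genes were called up and 0 down (edgeR, adjusted p at most 0.05), with a median log2 fold change of 0.73, where 14.0% of all genes were called up. Leaving out 1 rat gave counts of 17 to 21. The relative Ifi47 rose from 12.7 ± 4.16 CPM (SD, n = 5) to 81.0 ± 70.6 CPM, with a log2 fold change of 2.70 ± 0.60 (SE) and an adjusted p of 0.00206, and all 5 treated rats were above all vehicle rats. Cxcl10, a chemokine for activated T cells, rose from 3.31 ± 0.835 CPM to 60.4 ± 57.0 CPM (log2 fold change 4.21 ± 0.67, adjusted p = 0.00020, 5 of 5 rats). Rats 2 and 4, which led for the members, had 108 and 135 CPM of Cxcl10 and 144 and 169 CPM of Ifi47.

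The antigen presentation genes Tapbp and Psmb9 rose 2.82-fold and by 1.45 ± 0.36 on the log2 scale (adjusted p = 0.000141 and 0.00479). Ciita, the master regulator of MHC class II, rose by 0.94 ± 0.19 on the log2 scale (adjusted p = 0.0010). These 3 genes and Cxcl10 were named because they were called and 5 of 5 treated rats were above all vehicle rats. That separation is thus the rule of naming and not a result. The remaining 9 called genes among the 21 other interferon gamma targets tested had log2 fold changes of 0.70 to 1.59.

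Among the signalling genes, 6 of 15 were called up in experiment A at 1000 mkd, where 14.0% of all genes were called up. Socs1, a feedback inhibitor of the Jak kinases, had a log2 fold change of 2.00 ± 0.50 (adjusted p = 0.00452, 4 of 5 rats above all vehicle rats). Il18, a cytokine that drives interferon gamma production, had 1.37 ± 0.26 (adjusted p = 0.00069, 5 of 5 rats), and Tbx21, the transcription factor of Th1 cells, had 1.07 ± 0.24 (adjusted p = 0.00242, 4 of 5 rats). Irf8 (0.85 ± 0.16, adjusted p = 0.000672) and Jak2 (0.67 ± 0.18, adjusted p = 0.00679) were called as well.

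The receptor chains passed the adjusted p but not the fold criterion, at 0.58 ± 0.12 for Ifngr1 and 0.31 ± 0.11 for Ifngr2. Jak1 (0.10 ± 0.13), Irf2 (0.02 ± 0.23), the phosphatase Ptpn2 (-0.07 ± 0.13), Pias1 (0.21 ± 0.14), the feedback inhibitor Socs3 (0.50 ± 0.37), Il12b (0.19 ± 0.54) and Il12rb2 (0.31 ± 0.27) were not called.

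In females day 29 at 1500 mkd, 9.55% of all genes tested were called up and 3.54% down. Of the interferon gamma genes that are not members, 8 of 38 were called up and 0 down. They were Il18 (log2 fold change 1.26 ± 0.28, adjusted p = 0.00246), Socs1 (1.12 ± 0.40, adjusted p = 0.0458), Irf8 (0.76 ± 0.26, adjusted p = 0.0378) and Ifngr1 (0.68 ± 0.16, adjusted p = 0.00437) of the signalling genes. The other 4, named after their values were seen, were Ciita (0.90 ± 0.30), Casp4 (0.67 ± 0.22), Tapbp (0.62 ± 0.16) and Psmb9 (0.60 ± 0.16). In each of these 8 genes 2 to 4 of 5 treated rats were above all vehicle rats. Leaving out 1 rat moved the count to between 1, without treated rat 2, and 10, without treated rat 5. Of all genes, these fits called 802 and 1982, and the main fit 1498.

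At 1500 mkd none of these genes was called by edgeR in males day 8 (6 of 38 at an unadjusted p under 0.05, 1 called by DESeq2), males day 29 (9 of 37, 3 by DESeq2) or females day 8 (11 of 38, 1 by DESeq2). Of all genes tested, 1429 of 11304, 3050 of 11279 and 1688 of 11497 had such a p in these data sets, in that order. Below the highest doses, 1 of these interferon gamma genes was called in 19 comparisons. It was the proteasome subunit Psmb10 in males day 29 at 1000 mkd (log2 fold change 0.77 ± 0.20, adjusted p = 0.0342, 5 of 5 rats). There 0.949% of all genes were called up. Across the 19 comparisons 0 to 13 of these interferon gamma genes had an unadjusted p under 0.05 by edgeR. The 13 came in males day 29 at 1000 mkd, where 2959 of all 11279 genes had such a p.

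The vehicle rats show the members before any dose, and these comparisons were not used to choose them. Sex, day and experiment (with its stock of rats) cannot be told apart from how the libraries of each data set were made. Gbp4 had its highest vehicle mean in males of experiment B on day 8 (2.47 ± 0.856 CPM, SD, n = 5), followed by males day 29 (1.68 ± 0.785), females day 8 (1.46 ± 0.675), males of experiment A (1.44 ± 0.444) and females day 29 (1.09 ± 0.323). None of the vehicle comparisons called Gbp4. Gbp2 was lower in all 5 vehicle males of experiment A (11.4 ± 4.84 CPM) than in all 5 of experiment B on day 8 (23.3 ± 5.67 CPM), with a log2 difference of -1.04 ± 0.35 that missed the threshold (adjusted p = 0.122, edgeR). How many of all genes separated these groups was not counted, and 1930 of 11297 had an unadjusted p under 0.05.

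Irf1 was called higher in vehicle females than in vehicle males on day 29. There the means were 49.8 ± 14.7 and 29.7 ± 5.02 CPM, a log2 difference of 0.76 ± 0.25 (SE) with an adjusted p of 0.0362 and 4 of 5 females above all males. On day 8 they were 38.5 ± 4.57 and 26.6 ± 3.69 CPM (0.53 ± 0.25, adjusted p = 0.193), with 5 of 5 females above all males. How many of all genes separated the sexes in this way was not counted, and 2632 of 11297 had an unadjusted p under 0.05 on day 8 by edgeR. Of 11297 genes, 11.8% were called in either direction between the sexes on day 29 and 7.95% on day 8. The call on day 29 was lost in 7 of the 10 fits that left out 1 rat. In the other 3 vehicle comparisons (males day 29 against day 8, females day 29 against day 8, and males of A against B on day 8), 0 of 6 members were called by edgeR and 0 by DESeq2, with 1, 1 and 4 at an unadjusted p under 0.05. The share of all genes called in them was 0.0266%, 0.859% and 1.22%. Of all 11297 genes, 1202, 2208 and 1930 had an unadjusted p under 0.05 by edgeR.

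Ifi47 differed far more between the sexes than any member. It lay between 13.4 and 22.0 CPM in vehicle males and between 158 and 415 CPM in vehicle females on day 8, and between 6.17 and 16.5 CPM and between 110 and 395 CPM on day 29. The sexes did not overlap on either day. The log2 differences were 4.01 ± 0.36 (16.1-fold, adjusted p = 1.6e-08) and 4.09 ± 0.36 (17.0-fold, adjusted p = 1.1e-08), and they stayed between 3.80 and 4.26 when any 1 rat was left out.

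In females at 1500 mkd Ifi47 lay between 152 and 517 CPM on day 8 and between 86.8 and 343 CPM on day 29, with log2 fold changes of -0.17 ± 0.36 (adjusted p = 0.885) and -0.21 ± 0.36 (adjusted p = 0.718). In males day 29 at 1500 mkd, rat 3 had 51.7 CPM of Ifi47 and the rest had at most 17.1 CPM. Ifi47 in the most induced male of experiment A (169 CPM) lay within the range of vehicle females on day 8.

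The receptor chain Ifngr2 was also higher in females, at 51.4 ± 6.48 against 21.5 ± 1.33 CPM on day 8 (log2 difference 1.25 ± 0.10, adjusted p = 4.3e-09) and 47.5 ± 4.61 against 23.0 ± 1.44 CPM on day 29 (1.06 ± 0.10, adjusted p = 6.0e-08), with no overlap. Ifngr1 was not called on either day. In all, 4 of 37 non-member genes were called between the sexes on day 8, where 7.95% of all genes were, and 6 of 37 on day 29, where 11.8% were. The rest, named after their values were seen, were Casp4, lower in females on both days (-1.01 ± 0.33 and -1.05 ± 0.33), Cxcl9, lower on day 8 (-1.23 ± 0.26), and Socs3 (1.47 ± 0.40), Psmb10 (0.93 ± 0.24) and Psmb8 (0.72 ± 0.24), higher on day 29. Leaving out 1 rat ended the call of Casp4 in 9 of 10 fits on day 8 and in 4 of 10 on day 29, where its log2 difference ran from -1.20 to -0.44, and that of Psmb8 in 7 of 10.

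**Figure D5:**
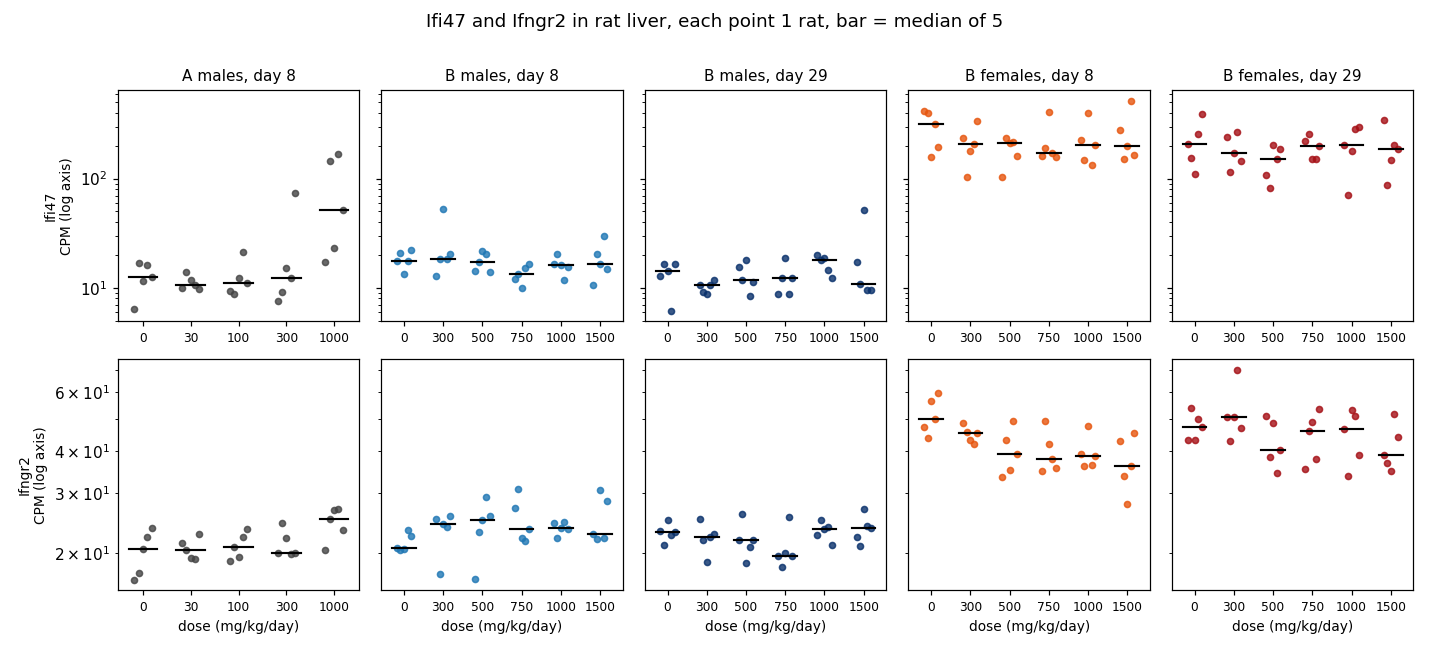
Levels of Ifi47 and Ifngr2 (CPM, log axis) against dose in the 5 data sets, with 1 point per rat and a bar at the median of 5 rats. Vehicle females lie at 110 to 415 CPM of Ifi47 and vehicle males of experiment B at 6.17 to 22.0 CPM, and in experiment A at 1000 mkd Ifi47 spans 17.2 to 169 CPM.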

How the data were processed

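Poly(A) RNA from the left liver lobe was sequenced with a stranded kit, and per the study's methods the reads were trimmed with Trimmomatic, aligned with Bowtie2 to the rat build Rn6 and counted per gene with HTSeq. The authors deposited raw counts of reads per gene, not normalized, in 5 tables, 1 for experiment A and 4 for experiment B, and every sample column was used (0 were left out). HTSeq's summary lines (reads without a gene) made up 35.5% to 67.1% of counts in experiment B and entered neither library sizes nor tests. Levels are CPM with TMM factors over all rats. Fits used edgeR 4.0.16 in R 4.3.3 (TMM, filterByExpr, quasi-likelihood F-test), with all dose groups of a table in 1 fit and the vehicle groups in another. A call needed a 1.5-fold change and p of no more than 0.05 after Benjamini-Hochberg adjustment across the genes tested. DESeq2 1.42.0, other size factors and filters, the 2 groups alone, a replicate block and leaving out each rat were tried as alternatives, and the edgeR fit was tested on simulated data. The members and the gene lists were chosen with earlier results of these data known, so the dose comparisons of the members carry no p. The adjusted p values of the listed genes at a dose are a description for the same reason. The text names all members, the detected genes of the relatives and signalling lists (1 is not reported here), and, of the other interferon gamma targets, up to 6 called genes whose treated and vehicle rats did not overlap. Each rat is a separate animal, housed in pairs, so rats of a cage are not fully independent. The vehicle males of day 29 were placed by their titles, since another label of theirs names the first experiment. Promoter letters come from RefSeq on GRCr8, not on Rn6, and were not joined to the counts by coordinates.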

Additional observations from a re-analysis of the deposited data

Results flagged for a closer look

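In 19 of 174 sets of 5 rats (6 members in 29 groups) the highest or lowest rat lay apart from the rest by more than Dixon's critical value for 5 samples. For normally distributed values chance gives about 1 in 20 such sets. The rule was applied to CPM without a log, so that rate need not hold here and no excess is read from the count. The members also move together within a rat, so the sets are not independent.

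In experiment A the high values were Gbp4 at 214 CPM in rat 2 at 1000 mkd, and rat 5 at 300 mkd for Gbp2 (47.8 CPM), Gbp4 (6.16 CPM), Gbp5 (9.90 CPM) and Irgm (144 CPM). Single high rats were also seen for Gbp5 at 0 mkd (5.10 CPM) and at 100 mkd (8.34 CPM), and for Irf1 at 30 mkd (59.4 CPM).

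In males of experiment B on day 8 the high values were Gbp4 at 1000 mkd (4.01 CPM), Irgm at 300 mkd (91.9 CPM) and Irf1 at 300 mkd (36.6 CPM). In males day 29, Gbp4 was high in rat 3 at 1500 mkd (7.33 CPM) and Irf1 was low in vehicle rat 4 (21.1 CPM).

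In females day 8, Gbp4 was high in vehicle rat 4 (2.65 CPM), Gbp2 and Gbp5 at 500 mkd (32.6 and 8.49 CPM) and Igtp at 750 mkd (195 CPM). In females day 29, Irgm was high at 300 mkd (82.6 CPM) and Igtp was low at 1000 mkd (48.9 CPM).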

How the results depend on the processing

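The count of members called in females day 8 at 1500 mkd, 1 in edgeR, was 2 in DESeq2, 0 in the fit of the 2 groups alone, 0 with the replicate block and 0 to 4 when 1 rat was left out. Of all genes, the same fits called 81, 341, 11, 3 and 1 to 426, in that order. For the other interferon gamma genes at 1500 mkd, edgeR's 0 in males day 8 was 1 in DESeq2. Its 0 in males day 29 was 3 in DESeq2, 1 with the replicate block and 0 to 2 with 1 rat left out. Its 0 in females day 8 was 1 in DESeq2 and 0 to 3 with 1 rat left out. Its 8 in females day 29 was 1 in the fit of the 2 groups alone and 1 to 10 with 1 rat left out. Members called between vehicle females and males numbered 0 to 1 on day 8 and 0 to 1 on day 29 with 1 rat left out. The causes were not tested.

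With 1 rat left out, 7 log2 differences between vehicle groups changed sign, all of uncalled members. Between females and males they were Gbp5 on day 8 (-0.28 to 0.20) and Gbp2 (-0.052 to 0.37) and Igtp (-0.0053 to 0.24) on day 29. Between females on day 29 and day 8 they were Gbp2 (-0.49 to 0.072), Igtp (-0.11 to 0.14) and Irgm (-0.13 to 0.22), and between males of A and B on day 8, Irf1 (-0.23 to 0.23).

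Replicate numbers were shared between groups. Between rats with the same number at the highest dose and in vehicle, correlations of deviations ran from -0.249 to 0.336. They exceeded 0.1 in 2 to 4 of 5 numbers per table. The vehicle rat most like a treated rat had its number in 4 of 5 cases in males day 8 and 1 of 5 in females day 29. The other tables lay between these. Whether rats with the same number share a batch was not tested. With the replicate block 107 results kept their direction and call, 2 gained a call and 4 lost one. The number of all genes called at 1500 mkd moved more widely. It was 20 in males day 8 (174 in DESeq2, 33 with the block, 11 with the 2 groups alone), 554 in males day 29 (210 with the 2 groups alone), 81 in females day 8 (341 in DESeq2, 3 with the block, 11 with the 2 groups alone) and 1498 in females day 29 (488 with the 2 groups alone). Ifng was too low to be tested.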
